A study of Mus musculus with 4 samples.

Results

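The day to night difference in miRNA levels of wild-type liver was read from 2 of the 4 arrays of the series, which carried probes for 611 mouse miRNAs. The WT ZT2 array held liver RNA of wild-type mice killed 2 h after lights on (09:00), and the WT ZT14 array that of wild-type mice killed at zeitgeber time 14 h (21:00), in the dark phase of a 12 h light cycle. Both pools came from 3 male mice of 6 to 8 weeks of age, caged singly, fed freely and given 2 weeks of adaptation. The background strain is not given in the sources used here. The other 2 arrays, Clock mutant ZT2 and Clock mutant ZT14, held pools of 3 males that carried the Clock Δ19 allele, kept and killed in the same way. With 1 pooled array for each condition, no p-value can be given for wild type alone, and a difference between mice cannot be told apart from a difference between times of day.

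miRNAs are short RNAs that pair with mRNAs, mainly through a seed near the 5′ end, and lower their translation or stability. The liver clock is built on the CLOCK and BMAL1 activators and their PER and CRY repressors, and drives daily rhythms of lipid, glucose and bile acid metabolism. The mature form of a miRNA is often long-lived, so that its level may follow a rhythm of its gene only in part. Hepatocytes make up most of the tissue and express miR-122 at a very high level, whereas immune, bile duct, endothelial and stellate cells bring miRNAs of their own.

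Each miRNA had 20 spots on an array, spread over 1 to 4 probes. The scanner's background-subtracted signal was averaged over spots without outlier flags and then over probes. Dividing by the array's 75th percentile, taken over the 123 miRNAs that all 4 arrays detected, gave the scaled signal. That percentile was 537 units on the WT ZT2 array and 339.9 on the WT ZT14 array, against 503 and 536 on the mutant arrays, so the WT ZT14 array was the dimmest. All ratios below are log2 ratios of scaled signal, ZT14 over ZT2. Each has a spot SD, the spread of spots within probes on both arrays on the same scale. The spot SD covers technical spread within an array and not the spread between mice.

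The mature sequences of the miRNAs with the lowest ratios and of their seed relatives are given first, because several of them share a seed. They are RefSeq sequences (GRCm38.p6), 5′ to 3′, with the seed, bases 2 to 8, in capitals. Of the 194 mouse miRNAs detected on at least 1 of the wild-type arrays, 122 were matched to such a sequence. The first group holds miR-200b and miR-429, which share a seed, and miR-200a and miR-141, which share another.
miR-200b: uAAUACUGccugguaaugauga
miR-429: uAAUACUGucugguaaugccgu
miR-200a: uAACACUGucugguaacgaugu
miR-141: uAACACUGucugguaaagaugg

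The second group holds miRNAs of the miR-17-92 cluster and its paralogs, in which miR-20a, miR-20b, miR-106b and miR-93 have a common seed, and miR-19a and miR-19b another.
miR-20a: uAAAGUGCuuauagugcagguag
miR-20b: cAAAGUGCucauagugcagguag
miR-106b: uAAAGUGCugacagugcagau
miR-93: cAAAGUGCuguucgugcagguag
miR-19a: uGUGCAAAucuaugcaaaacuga
miR-19b: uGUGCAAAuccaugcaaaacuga

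The third group holds single miRNAs that are described below for their ratios, among them miR-133b of striated muscle.
miR-212: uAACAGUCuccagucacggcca
miR-144: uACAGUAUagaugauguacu
miR-146a: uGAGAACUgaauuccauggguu
miR-342-3p: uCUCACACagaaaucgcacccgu
miR-223: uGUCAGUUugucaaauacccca
miR-802: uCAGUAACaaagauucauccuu
miR-133b: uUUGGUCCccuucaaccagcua
miR-139-5p: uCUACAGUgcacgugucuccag

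Far fewer miRNAs were detected at night. The scanner software called 193 mouse miRNAs detected at ZT2 and 138 at ZT14. Of these, 137 were detected on both arrays, 56 at ZT2 only and 1 at ZT14 only. The 56 were dim, with a median signal at ZT2 of 13.6 units against 120 units for the 137, and 46 of them lay under 20 units. The mean of the negative control spots was 6.60 units on the WT ZT2 array and 9.53 units on the WT ZT14 array. On the other 2 arrays, 25 of the 56 were detected on the mutant array at ZT2, 19 on the mutant array at ZT14, and 29 on neither.

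The unscaled signal was also lower at ZT14. Summed over detected mouse miRNAs it was 138050 units at ZT2 and 78043 units at ZT14, and the median unscaled log2 ratio of the 137 miRNAs was -0.78. The 4 spike-in control probes, meant for RNA added in known amount, had unscaled log2 ratios between -0.18 and 0.28. The study's methods do not mention such RNA. Scaled to the spike-ins, the median ratio of the 137 miRNAs was -0.86, and with the 75th percentile scaling it was -0.12. Whether less miRNA was present at night or less RNA was labelled cannot be told apart here. The ratios below are therefore read against the median of -0.12. Counts by sign, by fold or beyond the spot SD were taken from 0 and move with the scaling.

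Most miRNAs had close to the same scaled signal at both times. Of the 137, 99 (72.3%) had a ratio below 0. In all, 120 differed by under 1.5-fold, 15 were lower at ZT14 by 1.5-fold or more and 2 were higher. The SD of the ratios across miRNAs was 0.34, and their lower and upper quartiles were -0.31 and 0.02. By comparison with the spots, 62 of the 137 (45.3%) were lower by more than their spot SD and 14 (10.2%) were higher by more than theirs. The ratios spread more among dim miRNAs. With the 137 ranked by signal and split evenly into 3, the SD was 0.45 over the dimmest, 0.30 over the middle and 0.22 over the brightest, with medians of -0.09, -0.17 and -0.08.

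**Figure D1:**
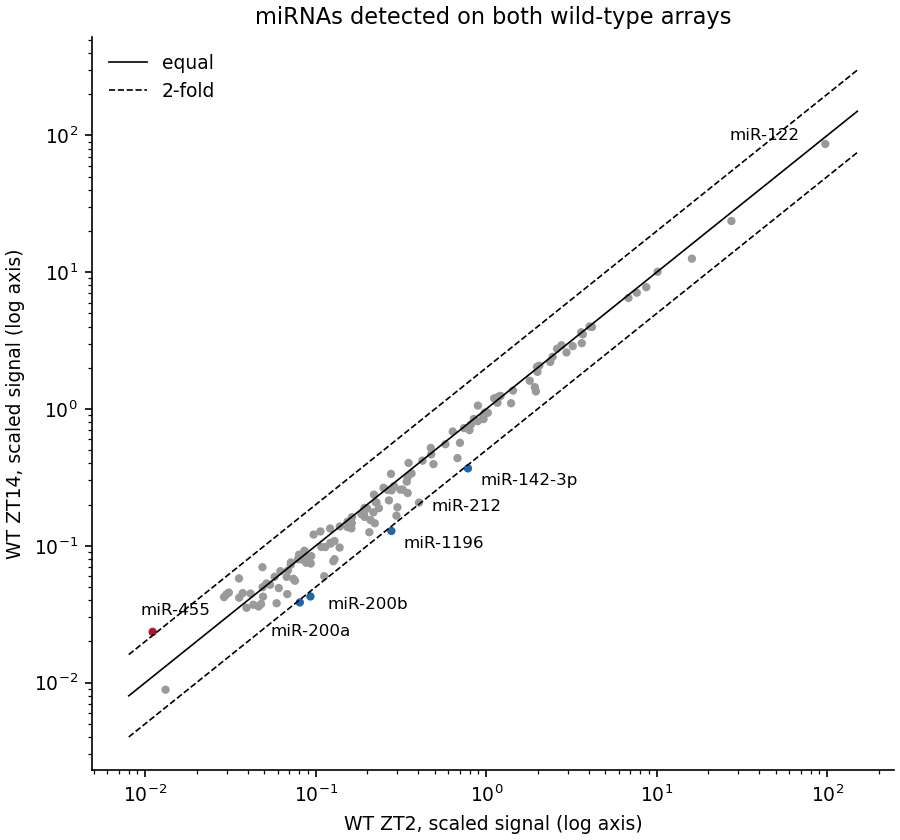
Scaled signal of the 137 miRNAs detected on both wild-type arrays, WT ZT2 on the x axis and WT ZT14 on the y axis, both log axes in units of the array's 75th percentile. Most points lie between the equal and the dashed 2-fold lines, with 4 miRNAs (blue) at or below the lower dashed line and miR-455 (red) above the upper one.

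The liver identity of both pools was seen in the share of miR-122. All 9 miRNAs of the hepatocyte list, not all of them specific to hepatocytes, were detected on both arrays. miR-122, the main hepatocyte miRNA and a regulator of cholesterol and fatty acid metabolism, had a signal of 52215 units at ZT2 and 29413 units at ZT14. It took 37.8% of all detected mouse miRNA signal at ZT2 and 37.7% at ZT14, and its log2 ratio was -0.17 with a spot SD of 0.10. The next brightest, miR-21, a miRNA of growth and injury responses, had a ratio of -0.21 (spot SD 0.12). miR-22 stood at -0.01 (spot SD 0.08) and miR-192, which is enriched in liver, at -0.11 (spot SD 0.11). The hepatocyte list had a median of -0.17, near that of all 137 miRNAs, and 5 of its 9 members lay below the overall median. Its lowest member was miR-802, known for its effect on hepatic insulin sensitivity, with 69.1 units at ZT2 and 27.1 at ZT14. The ratio of miR-802 was -0.69 (spot SD 0.15), so ZT2 was 1.61-fold above ZT14. With the normexp background correction and its offset of 50 units, its ratio was 0.030. That offset is added to every spot, so it draws the ratios of dim miRNAs together here and in the normexp values below.

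At least a 2-fold lower scaled signal at ZT14, the fold threshold named in the study's methods, was found for 13 of the 194 miRNAs detected on either array (6.7%). A 2-fold higher signal was found for 2 of the 194 (1.03%), both with a ZT14 signal below the mean of the negative controls. The 13 comprised 4 ratios between detected signals and 9 bounds from miRNAs detected at ZT2 only. These counts describe 2 arrays and have no test.

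The miR-200 pair had the lowest and the fourth lowest measured ratios. These miRNAs are known as epithelial miRNAs that repress the ZEB transcription factors, and in liver they mark bile duct cells. miR-200b gave 49.9 units at ZT2 and 14.5 at ZT14, a ratio of -1.13 with a spot SD of 0.43. miR-200a gave 43.3 units at ZT2 and 13.1 at ZT14, a ratio of -1.07 with a spot SD of 0.33. Both probes of each miRNA were lower at ZT14. miR-429, the third member of the gene cluster on chromosome 4, was detected at ZT2 only, at 18.8 units, and was at least 1.60-fold lower at ZT14. miR-141, which shares the seed of miR-200a, was also detected at ZT2 only, at 9.01 units, and was at least 1.89-fold lower. With the negative control mean as the floor, the bound of miR-429 was 1.25-fold and none remained for miR-141. miR-203, a skin and epithelial miRNA on the same list, had a ratio of -0.01. miR-96, also on the list and detected at ZT2 only, had a weaker bound of -0.31 on the log2 scale. The bile duct list thus had 3 of 9 members detected on both arrays, 2 of them 2-fold lower. Its summed scaled signal was 0.426 at ZT2 and 0.243 at ZT14. In bulk liver, fewer cells of a type and less RNA per cell cannot be told apart. At these dim levels the result depended on the background correction and its offset: with normexp the ratios of miR-200b and miR-200a were 0.038 and 0.10. The added 50 units exceed the signals of both miRNAs, so these values cannot decide whether the difference holds.

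All 4 measured members of the leukocyte list had ratios below 0, as did 72.3% of all 137 miRNAs. miR-142-3p, which is made in blood cells of all lineages and has been reported to act on Bmal1, gave 419 units at ZT2 and 125 at ZT14, a ratio of -1.09 with a spot SD of 0.10. Its 2 probes gave nearly the same ratio, -1.08 and -1.09. Its other arm, miR-142-5p, was detected at ZT2 only, at 38.0 units, and was at least 3.72-fold lower at ZT14. miR-342-3p, found in lymphocytes, had a ratio of -0.72 (spot SD 0.29). miR-146a, which restrains innate immune signalling, had 111 units at ZT2 and 42.7 at ZT14, a ratio of -0.71 (spot SD 0.13). The myeloid miR-223 stood at -0.51 (spot SD 0.10). Each of the 4 was lower by more than its spot SD, against 45.3% of all 137, and their median was -0.72 against -0.12 for all 137. The summed scaled signal of the list was 1.53 at ZT2 and 0.813 at ZT14, and miR-150 and miR-155 were detected on neither array. With normexp the median of the 4 was -0.16, beside -0.18 for the hepatocyte list and 0.087 for all 137, the ratio of miR-342-3p was 0.025 and no bound remained for miR-142-5p.

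Striated muscle miRNAs were seen at ZT2 only. miR-1 gave 105.8 units at ZT2 and 0.592 units at ZT14, and was at least 22.2-fold lower at ZT14. miR-133b, at 37.6 units, was at least 7.90-fold lower, and miR-133a, at 21.6 units, at least 4.55-fold lower. These are the hallmark miRNAs of heart and skeletal muscle, and none of the 3 was detected on either mutant array. The remaining 4 members of the muscle list were detected on neither wild-type array. The summed signal of the list was 165 units at ZT2, and its part in the other ratios was not tested. With normexp the bound of miR-1 was -0.74 and that of miR-133b -0.033 on the log2 scale, and none remained for miR-133a.

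The fourth measured ratio past 2-fold was that of miR-1196, at 149 units at ZT2 and 43.6 at ZT14, a ratio of -1.11 (spot SD 0.14). The other bounds of 2-fold or more were weaker. miR-1198 was at least 3.05-fold lower, miR-1894-5p at least 3.03-fold, miR-669b at least 2.30-fold, miR-487b at least 2.18-fold and miR-1906 at least 2.003-fold. Among members of the miRNA lists, miR-301a, at least 1.9993-fold lower, and miR-18a, at least 1.98-fold lower, had bounds just outside the threshold. A bound sets the ZT2 signal against the higher of the miRNA's own ZT14 signal and the lowest signal detected at ZT14, 3.02 units. That floor is below the mean of the negative controls. With that mean as the floor, 7 miRNAs in place of 13 were 2-fold lower, and the bounds became 7.04-fold for miR-1, 2.53-fold for miR-142-5p and 2.50-fold for miR-133b. Those of miR-1906, miR-133a and miR-1198 were 1.88-fold, 1.44-fold and 1.09-fold, and no bound remained for miR-1894-5p, miR-669b and miR-487b.

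**Figure D2:**
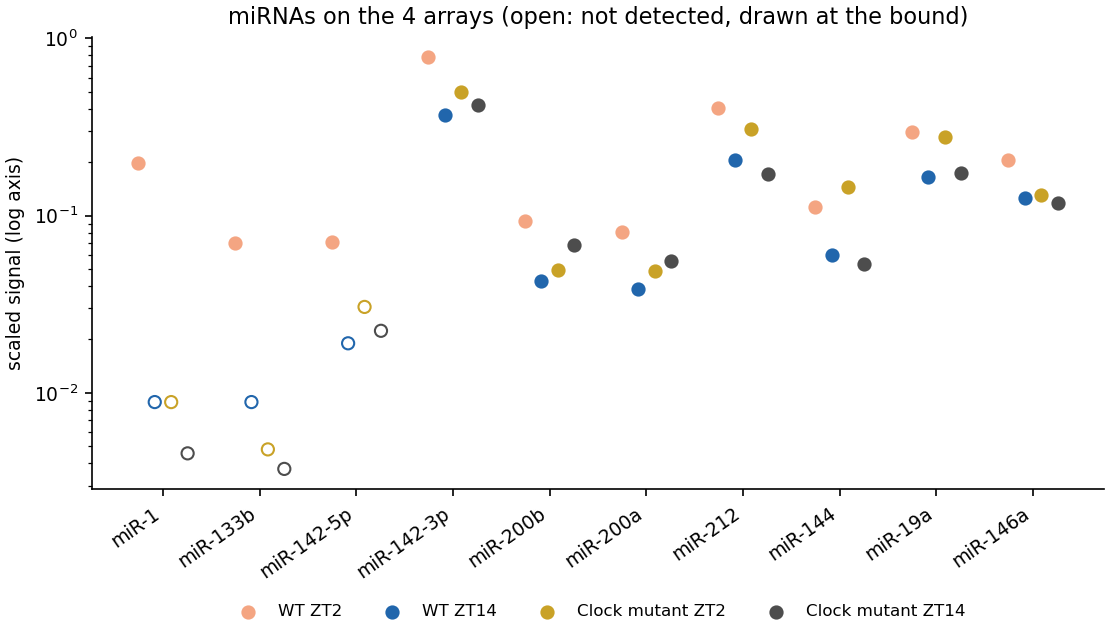
Scaled signal (log axis, in units of the array's 75th percentile) of 10 miRNAs on the 4 arrays. Filled points were detected and open points were not and are drawn at the level used for the bound. The WT ZT2 array is the highest of the 4 for miR-1, miR-133b, miR-142-5p, miR-142-3p, miR-200b, miR-200a, miR-212, miR-19a and miR-146a, whereas the mutant ZT2 array is the highest for miR-144.

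Several other miRNAs lay close to the threshold. miR-212, of the CREB-induced pair miR-132 and miR-212 known in neuronal rhythms, gave 216 units at ZT2 and 70.2 at ZT14. Its ratio was -0.96 with a spot SD of 0.12, just outside 2-fold, and miR-200a at -1.07 was the value just inside. Its partner miR-132 was detected on none of the 4 arrays. miR-144, an erythroid miRNA, gave 60.1 and 20.4 units, a ratio of -0.90 (spot SD 0.26) that was 0.018 with normexp, whereas miR-451, which is processed from the same primary transcript and abundant in red cells, gave 1724 and 979 units, a ratio of -0.16 (spot SD 0.07). The third red cell marker, miR-486, was detected on neither wild-type array. miR-143, of smooth muscle and other mesenchymal cells, had a ratio of -0.60 (spot SD 0.13). miR-199a-3p, a stellate cell miRNA, had -0.22 (spot SD 0.11), and the endothelial miR-126-3p had -0.07 (spot SD 0.08).

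The miR-17-92 cluster and its paralogs, which are induced by MYC and promote proliferation, had lower ratios than most miRNAs. All 8 members detected on both arrays had ratios below 0, as did 72.3% of all 137, and 6 of the 8 lay below the overall median and were lower by more than their spot SD, against 45.3% of all 137. The median of the list was -0.43. miR-19a gave 160 units at ZT2 and 56.4 at ZT14, a ratio of -0.84 (spot SD 0.17), and miR-19b gave 1048 and 457 units, a ratio of -0.54 (spot SD 0.08). Among the miRNAs of the common seed AAAGUGC, miR-20b stood at -0.66 (spot SD 0.12), miR-20a at -0.63 (spot SD 0.10), miR-106b at -0.33 (spot SD 0.13) and miR-93 at -0.25 (spot SD 0.22). The cluster mates with another seed lay near 0: miR-92a had a ratio of -0.08 and miR-25 of -0.03. Measured members of the chromosome 14 cluster ranged from -0.84 to -0.08. Of these, miR-92a and miR-19b also have genes in the cluster on the X chromosome. Whether members transcribed together shared 1 ratio can therefore not be told from this range. Scaled to the 75th percentile over all mouse miRNAs, 5 of the 8 ratios were below 0. A scaling by 1 number per array cannot change the count below the median of all 137. With quantile normalization, normexp and the total signal per miRNA, which can change it, that count was 6 of 8 each time.

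**Figure D3:**
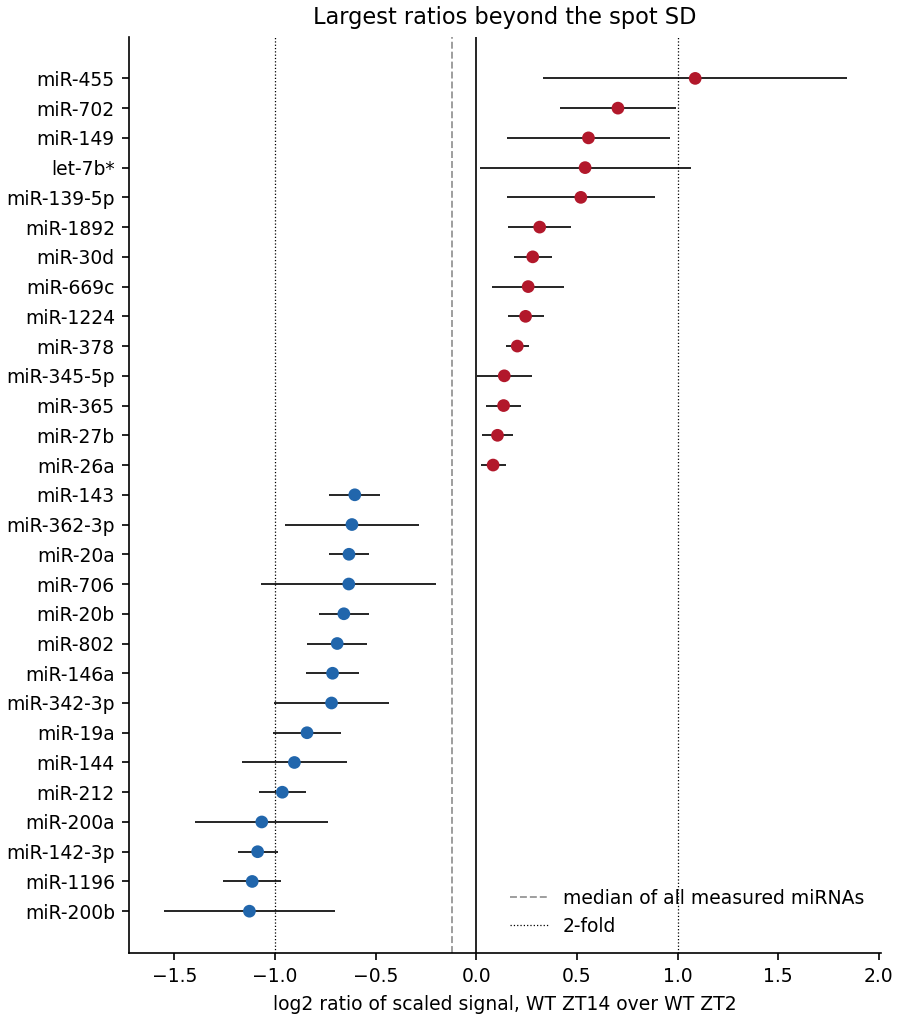
Log2 ratios of scaled signal, WT ZT14 over WT ZT2, of the 15 lowest and the 14 highest ratios beyond their spot SD. Bars are 1 spot SD, the dashed line is the median of all 137 miRNAs at -0.12 and the dotted lines mark 2-fold. The lowest ratios reach -1.13 (miR-200b), and those above 0 are small except for a few dim miRNAs at the top.

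Few miRNAs were 2-fold higher at ZT14 after scaling. The only measured ratio above 2-fold was that of miR-455, 1.09 with a spot SD of 0.75. Its signals, 5.93 units at ZT2 and 7.98 at ZT14, were below the mean of the negative controls on both arrays, and 1 of its 2 probes was negative on both. miR-302b was the only miRNA detected at ZT14 alone, at 6.90 units, which is also below the negative control mean of that array. Its bound was 3.65-fold higher, or 1.65-fold with the negative control floor.

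Of the remaining higher ratios, the larger ones were again those of dim miRNAs. miR-702 had 19.0 units at ZT2 and 19.6 at ZT14, a ratio of 0.70 (spot SD 0.29), with all 4 of its probes higher at ZT14 after scaling. miR-149 stood at 0.56 (spot SD 0.40), let-7b*, the passenger strand of let-7b, at 0.54 (spot SD 0.52), and miR-139-5p, encoded within Pde2a, at 0.52 (spot SD 0.37). Brighter miRNAs differed by less. miR-30d, of a family abundant in liver, had 148 units at ZT2 and 114 at ZT14, a ratio of 0.28 (spot SD 0.09). miR-378, encoded within Ppargc1b, a gene of mitochondrial metabolism, had a ratio of 0.20 (spot SD 0.06). miR-27b, which has been reported to act on Bmal1, stood at 0.11 (spot SD 0.08) and miR-26a at 0.08 (spot SD 0.06). Without scaling, 2 of these 14 ratios were above 0, and with the spike-ins 1 was. Both settings move all ratios and their median by the same amount, so all 14 stay above that median by construction. With normexp, which can change the order, 13 of the 14 were above it. The normexp offset raised the ratios of dim miRNAs on these arrays, so that count is no test of the dim ones.

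The large conserved families had medians close to the overall median. The let-7 family, which restrains growth programmes and shares the seed GAGGUAG, had 9 members detected on both arrays with ratios between -0.28 (let-7e) and 0.08 (let-7b) and a median of -0.07. None of them was 2-fold different. The miR-30 family had a median of -0.12 over 5 members, the miR-29 family, known for its collagen targets, -0.16 over 3, and the family of miR-15, miR-16, miR-195 and miR-497, known as cell cycle regulators, -0.12 over 6. The miR-23/24/27 clusters had a median of 0.04 over 5 members, none below the median of all measured miRNAs. With normexp 4 of the 5 lay below that median, and with quantile normalization 2. miRNAs within metabolic genes (miR-103, miR-107, miR-378 and miR-378*) had a median of 0.10 over 4 members, again none below the median of all measured miRNAs. With normexp 2 of the 4 lay below it. miR-33, within Srebf2, was detected at ZT2 only.

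miRNAs reported to act on clock genes had ratios on both sides of the overall median. Of the 16 on the array, 8 were detected on both arrays, with a median of -0.09, and 4 of the 8 lay below the overall median. Their lowest ratio was that of miR-142-3p, given above. miR-34a, a p53 target that has been linked to PER1, followed with 144 units at ZT2 and 72.9 at ZT14, a ratio of -0.32 (spot SD 0.16). miR-29a and miR-30a, which target Per mRNAs, had -0.01 and -0.19. miR-219, a miRNA of the central pacemaker, was detected at ZT2 only with a bound under 2-fold.

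**Figure D4:**
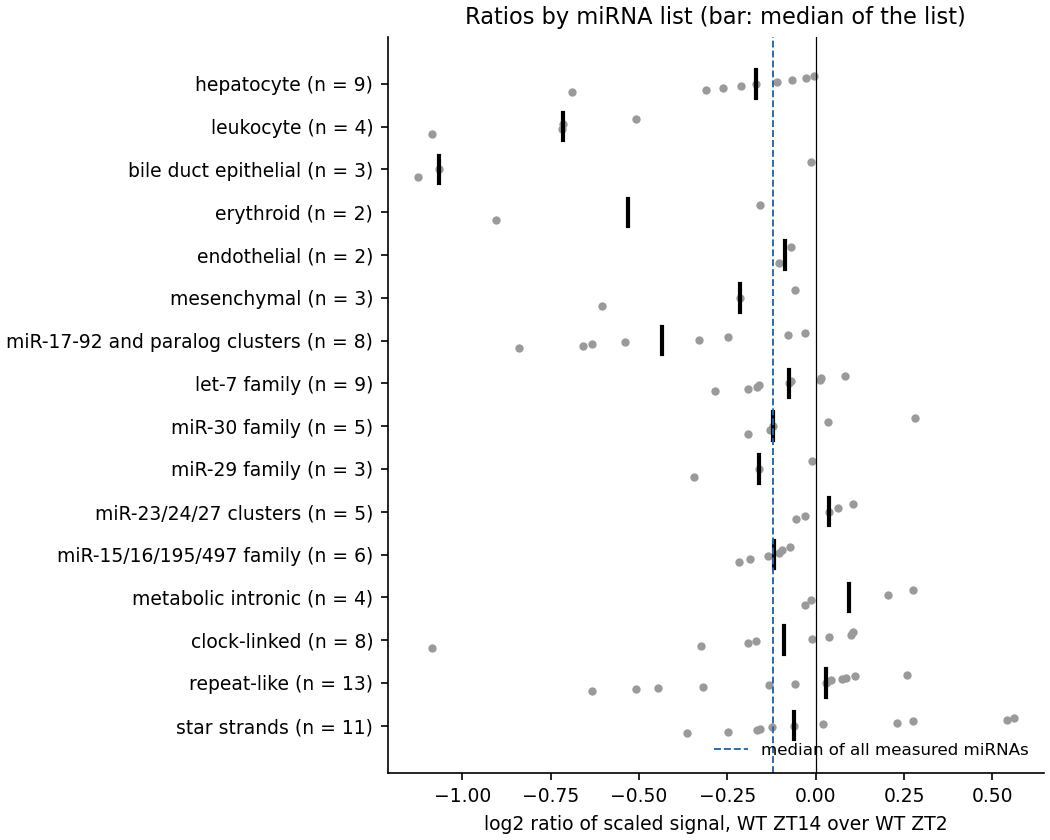
Log2 ratios, WT ZT14 over WT ZT2, of the members of 16 miRNA lists that were detected on both arrays. Each point is a miRNA, the black bar is the median of the list and the dashed line the median of all 137 miRNAs at -0.12. The medians of the leukocyte (-0.72), bile duct (-1.07), erythroid (-0.53) and miR-17-92 (-0.43) lists lie furthest below the dashed line, and most other lists lie near it.

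A second pair of arrays gave the same contrast in Clock mutant liver, read here beside the wild type. Over the 123 miRNAs detected on all 4 arrays, the median ratio was -0.13 in wild type and -0.17 in the mutant, and the SD across miRNAs was 0.30 and 0.59. Across these miRNAs, which are not independent replicates and share arrays, the Pearson correlation of the ratios was 0.13 and the Spearman correlation 0.14. In 38 of the 123 both ratios were lower by more than their spot SDs, and in 6 they had opposite signs beyond them. With 1 array per condition the difference between genotypes has no test.

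Some low ratios appeared in both genotypes. miR-212 had -0.85 in the mutant beside -0.96 in wild type, and miR-144 had -1.45 beside -0.90. miR-19a had -0.67 beside -0.84 and miR-20a -0.43 beside -0.63, and the miR-17-92 list had medians of -0.42 and -0.43. Other ratios were near or above 0 in the mutant, a difference that was not tested. miR-142-3p had -0.24 in the mutant, miR-146a -0.14 and miR-342-3p 0.03, so the leukocyte list had a median of -0.13 there, against -0.72 in wild type. miR-200b had 0.47 and miR-200a 0.19. Of the 13 miRNAs called lower in wild type, 2 were also 2-fold lower in the mutant, miR-1196 and miR-1198, for which the mutant values were bounds. Of all 163 miRNAs detected on either mutant array, 22 (13.5%) were 2-fold lower at ZT14. The share of the 13 cannot be set directly beside this one. Among the 13, miR-1, miR-133a, miR-133b, miR-142-5p, miR-669b and miR-487b were detected on neither mutant array and could not be called there.

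Repeat-like miRNAs, a list that holds the miR-466, miR-467 and miR-669 families and a few others, had low ratios in the mutant. In wild type, 13 of them were detected on both arrays, with a median of 0.03 and ratios between -0.63 (miR-706) and 0.26 (miR-669c). In the mutant, 12 of these 13 were 2-fold lower at ZT14, 6 by measured ratios between -3.63 and -1.84 and 6 by bounds, against 13.5% of all miRNAs detected in the mutant. For example, miR-466f-3p had 112 units at ZT2 and 52.3 at ZT14 in wild type, a ratio of -0.45, and -3.63 in the mutant.

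**Figure D5:**
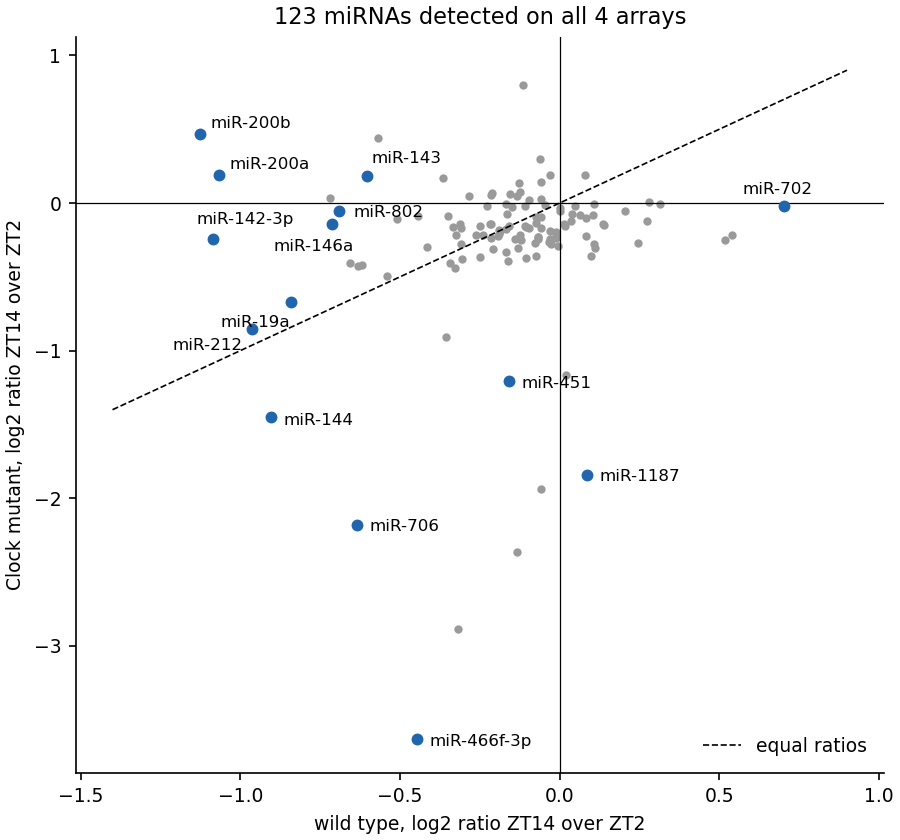
Log2 ratios ZT14 over ZT2 of the 123 miRNAs detected on all 4 arrays, wild type on the x axis and Clock mutant on the y axis, with the line of equal ratios dashed. miR-212 and miR-19a lie near the line, miR-200b, miR-200a and miR-142-3p lie above it with ratios below -1 in wild type, and a group of repeat-like miRNAs lies far below it.

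A test of the time of day was possible only over both genotypes, with limma on the 4 arrays, genotype and time point as terms and 1 residual degree of freedom. No miRNA of the 123 tested passed an adjusted p of 0.05 (0%), and 12 had an unadjusted p under 0.05, all of them lower at ZT14. The lowest adjusted p of limma, 0.195, was shared by miR-212 with a log2 difference of -0.91 (SE 0.13), miR-144 with -1.17 (SE 0.18) and miR-19a with -0.76 (SE 0.13). The ratio was below 0 in both genotypes for each of these 3. miR-19b, miR-20a, miR-20b and miR-362-3p followed, with an adjusted p of 0.346 each. For the miRNAs with the largest wild-type ratios the adjusted p was higher, 0.714 for miR-200b and 0.494 for miR-142-3p.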

How the data were processed

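Liver RNA pools of 3 mice were hybridized to 4 one-colour Agilent miRNA arrays of 1 slide, scanned together, 1 for each genotype and time point. The authors deposited the scanner output, made with Agilent Feature Extraction 10.7.1.1, in which each spot has a linear intensity after background subtraction, outlier flags and a detection call for its miRNA. The deposited log2 table, 1 value for each miRNA and array, has no stated normalization. Column medians of that table are -7.51 for WT ZT2 and 0 for WT ZT14, and its ZT14 column stands 7.51 above its ZT2 column relative to the scanner totals, so it was used as an alternative only.

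Control spots and 39 viral miRNAs were left out. No spot was saturated, and 3.36% and 3.37% of the miRNA spots of the WT arrays were flagged and left out. The number of arrays limits the precision. A miRNA detected on 1 wild-type array got a bound. The time point was tested over 4 arrays with limma 3.58.1 in R 4.3.3 (additive design, Benjamini-Hochberg). Data for this comparison were simulated with 30 of 123 miRNAs changed by 1.5 on the log2 scale and an SD of 0.15. On them limma called 30 changed and 1 unchanged miRNA. In the arrays, miR-212, miR-144 and miR-19a, with the lowest adjusted p of limma, had smaller log2 differences, -0.91, -1.17 and -0.76. Whether limma would call differences of that size, or with a larger SD, was not tested. Python 3.11.15, numpy 2.4.6, pandas 2.3.3, scipy 1.17.1 and matplotlib 3.10.9 did the rest.

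The miRNAs named were the 15 lowest and up to 15 highest ratios beyond their spot SD, the 8 largest bounds in each direction, the 10 brightest, examples of each list, and their seed or cluster relatives. miR-1906, outside this rule, was named after its value was seen. The members and lists were chosen with earlier results of these data known. miRNAs were called neighbours within 10 kb by RefSeq positions. Alternatives were other scalings, background corrections, summaries per miRNA, detection calls, floors and thresholds. The sum of probe totals was chosen after seeing the data.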

Additional observations from a re-analysis of the deposited data

Results flagged for a closer look

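In 5 of the named miRNAs the wild-type and mutant ratios of ZT14 to ZT2 had opposite signs, each beyond its own spot SD. The difference was not tested, as there is 1 array per condition. miR-200b had -1.13 in wild type and 0.47 in the mutant. miR-143 had -0.60 and 0.18, miR-1224 had 0.24 and -0.27, miR-365 had 0.14 and -0.14, and miR-26a had 0.084 and -0.10. The median ratio of the miRNAs measured in both genotypes was -0.13 in wild type and -0.17 in the mutant. miR-365 and miR-26a lay above it in both, so their opposite signs rest on the choice of 0.

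Probes for viral miRNAs, which are outside the comparison, gave signal above the negative control mean on the wild-type arrays for 3 of the 39 present. mcmv-miR-M23-1-5p gave 122 units at ZT2 and 42.7 at ZT14, a scaled log2 ratio of -0.86. mcmv-miR-m88-1 gave 77.0 and 23.3 units, a ratio of -1.06, and mghv-miR-M1-2 gave 34.2 and 27.9 units, a ratio of 0.36. The source of this signal was not tested.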

How the results depend on the processing

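The count of miRNAs 2-fold lower, 13, depended on the scaling and the floor. It was 59 without scaling, 76 with the spike-in control probes, 6 when the 75th percentile was taken over every mouse miRNA and 6 when the median replaced it, 7 with quantile normalization, 0 with normexp, 49 with the total signal per miRNA, 0 with the authors' table, 4 over miRNAs detected on both arrays only, 7 with the negative control floor, 41 at 1.5-fold and 6 at 3-fold. The count 2-fold higher, 2, was 1 without scaling, with the spike-ins, with the median over spots, over miRNAs detected on both arrays only, with the negative control floor and at 3-fold, 0 with normexp and with detection from spots well above background, 14 with the total signal and 138 with the authors' table. That detection call left 0 miRNAs at ZT14 only.

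The median ratio, -0.12, was -0.78 without scaling, -0.86 with the spike-ins, 0.17 with the percentile over all mouse miRNAs, 0.10 with the median, 0.048 with quantile normalization, 0.087 with normexp and 6.76 with the authors' table. A scaling by 1 number per array moves every ratio and their median alike. The 15 lowest named ratios therefore stay below the median of all measured miRNAs under it by construction. Of settings that can change the order, quantile normalization left 15 of the 15 below that median, the total signal 14 and normexp 12. With normexp 7 of the 15 had ratios above 0: miR-200a 0.10, miR-200b 0.038, miR-144 0.018, miR-342-3p 0.025, miR-802 0.030, miR-362-3p 0.24 and miR-706 0.24. Of the 8 named bounds those of miR-1 and miR-133b remained. The normexp offset of 50 units weighs most on dim signals, so these values mix the correction with the offset. With the total signal, which equalled the sum of its probe totals within 0.01 on the log2 scale for 141 of 193 detected miRNAs at ZT2 and 104 of 138 at ZT14, miR-455 became -0.24. In the authors' table, whose shift between the time points is given above, miR-1196 stood at 5.79, miR-142-3p at 5.81, miR-200a at 5.47 and miR-200b at 5.43. The sum of probe totals gave 13 and 2 calls.

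limma called 0 miRNAs for time point, but 5 without scaling, 3 with normexp and 123 with the authors' table. With 3 arrays the genotype term could not be kept, so leaving out each array also dropped that term. These fits gave 0 to 13 calls, 13 without the WT ZT14 array and 1 without the mutant ZT14 array, beside 0 for time point alone over 4 arrays. In such a fit the lone array is assumed to vary like the others. No paired analysis was possible because a group is 1 array. The cause of these shifts was not tested.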

Other observations

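The values of other lists are given beside the overall median of -0.12. Passenger strands, the star entries of the array, had 11 of 115 members detected on both arrays with a median of -0.06. The families of miR-148 and miR-152 and of miR-130 and miR-301 had a median of -0.25 over 4 members, the miR-99/100, miR-125 and miR-10 families -0.04 over 5, and the miR-26 family -0.01 over 2. Of the entries derived from rRNA or tRNA, 5 were detected on both arrays with a median of -0.11, and the brightest, miR-720, a fragment of a tRNA, had 8619 units at ZT2 and 4266 at ZT14, a ratio of -0.36 (spot SD 0.04). Of the 66 miRNAs of the imprinted Dlk1-Dio3 cluster, miR-494 alone was detected on both arrays, with a ratio of -0.11. Of the miR-34 family and the pair miR-221 and miR-222, miR-34a and miR-221 were detected on both arrays, the latter with -0.16. miR-193 and miR-365 had -0.31 and 0.14, and miR-181a was detected at ZT2 only. Of the neuronal list, miR-212 was the only member detected on both arrays, at -0.96, and miR-219 was detected at ZT2 only.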
